A study of Mus musculus with 16 samples.

Results

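The cytosolic sulfotransferases were followed in mouse liver to ask how the loss of Gadd45b alters their response to phenobarbital (PB) after tumour initiation with N-diethylnitrosamine (DEN). The list held 9 genes: Sult1a1, Sult1b1, Sult1c2, Sult1d1, Sult1e1, Sult2a1, Sult2b1, Sult3a1 and Sult5a1. Members were chosen by name, with earlier results of these data known, as all probes whose RefSeq accession mapped to one of these symbols. Of the 9 genes, 7 had a probe among 19096 genes on the array. They were covered by 8 probes, of which 2 were for Sult1b1. No probe matched Sult2a1 or Sult3a1, which were not analysed here.

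RNA came from liver outside tumours of 16 male mice, 4 per group, each hybridised to 1 single-colour array. All mice were given 1 intraperitoneal dose of DEN, a liver carcinogen, of 90 mg/kg at 5 weeks of age, and all livers were taken at 57 weeks. WT DEN were C57BL/6J mice that drank plain water, and WT DEN + PB were C57BL/6J mice that drank PB, a drug that promotes liver tumours, at 0.5 g/l from 7 weeks of age. KO DEN and KO DEN + PB were mice with a null allele of Gadd45b in every cell, treated in the same ways. No group was free of DEN, so every PB effect below is an effect on top of DEN. The stock name of the null line names 129S6 beside C57BL/6, whereas the study elsewhere places it on C57BL/6J, so genotype and strain background cannot be told apart in a comparison of KO with WT.

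Cytosolic sulfotransferases move a sulfonate group from the donor 3'-phosphoadenosine 5'-phosphosulfate (PAPS) to hydroxyl or amino groups of small molecules. The product is more soluble in water, and is usually less active and more readily excreted. Sult1 enzymes act mainly on phenols, oestrogens, thyroid hormones and catecholamines, and Sult2 enzymes on hydroxysteroids and bile acids. In the liver they form part of the conjugation phase of drug metabolism, and several respond to the nuclear receptor CAR (Nr1i3), through which PB acts.

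The 250 bases before the gene start are shown for the 4 members that changed in at least 1 comparison, because nuclear receptors such as CAR bind pairs of short half-sites and these members moved with PB or genotype. The sequences are from RefSeq on GRCm38.p6, 5' to 3' on the strand of the gene. All 4 genes lie on the minus strand, Sult1e1 at chr5:87591612-87591861, Sult1d1 at chr5:87569007-87569256, Sult1c2 at chr17:53845959-53846208 and Sult5a1 at chr8:123158281-123158530. Capitals mark the half-site letters AGGTCA or AGTTCA, searched on both strands.
Sult1e1: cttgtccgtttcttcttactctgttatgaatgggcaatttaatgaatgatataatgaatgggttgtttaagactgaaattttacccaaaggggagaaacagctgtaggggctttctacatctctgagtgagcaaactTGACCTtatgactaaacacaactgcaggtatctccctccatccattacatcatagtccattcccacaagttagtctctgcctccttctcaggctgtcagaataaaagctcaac
Sult1d1: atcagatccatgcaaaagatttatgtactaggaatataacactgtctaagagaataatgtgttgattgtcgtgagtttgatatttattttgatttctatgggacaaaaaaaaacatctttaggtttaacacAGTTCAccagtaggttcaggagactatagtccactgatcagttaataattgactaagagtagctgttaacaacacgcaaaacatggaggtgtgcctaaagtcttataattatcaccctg
Sult1c2: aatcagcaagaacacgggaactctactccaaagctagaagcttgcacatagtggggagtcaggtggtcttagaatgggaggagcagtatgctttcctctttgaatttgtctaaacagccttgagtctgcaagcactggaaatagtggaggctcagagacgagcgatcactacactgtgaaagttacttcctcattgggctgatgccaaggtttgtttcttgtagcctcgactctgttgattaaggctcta
Sult5a1: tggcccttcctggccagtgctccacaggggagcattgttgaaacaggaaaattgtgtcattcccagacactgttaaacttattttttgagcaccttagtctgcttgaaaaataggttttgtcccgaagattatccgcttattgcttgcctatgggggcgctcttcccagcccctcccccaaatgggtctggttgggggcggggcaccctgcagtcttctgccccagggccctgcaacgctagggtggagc
The window of Sult1e1 held 1 match to AGGTCA, on the opposite strand and starting 113 bases before the gene start, and that of Sult1d1 held 1 match to AGTTCA at 119 bases. Neither motif occurred in the windows of Sult1c2 and Sult5a1. Sult1b1, which was called in no comparison, held the most matches of the members, 3 in 1 of its 2 listed windows and none in the other. Of 32851 promoter windows of this length, 14.0% held AGGTCA, 11.8% held AGTTCA and 24.2% held at least 1 of them, so these matches are common and describe the letters only. Sult1e1, Sult1d1 and Sult1b1 are neighbours on chromosome 5.

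The arrays lay on 4 slides scanned on 1 day. The 75th percentile of the processed signal ranged from 137 to 294 across arrays, and 58.3% to 67.7% of spots were well above background. Levels are given as log2 of the processed signal minus the array's 75th percentile, so 0 is the brightness of that percentile and levels of different genes are not compared. As a check of the genotype labels, each of the 2 Gadd45b probes was detected above background in all 8 WT livers and in 0 of the 8 KO livers. All 8 hepatocyte markers with a probe were well above background on every array, and of the 7 kidney markers 1 was above background on all arrays of each group.

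Sult1a1, Sult1b1, Sult1c2, Sult1d1, Sult1e1 and Sult5a1 were well above background on all 16 arrays and were tested, so none entered the test through 1 bright group. Sult2b1, a sulfotransferase of cholesterol and other steroids, was not tested. Its probe stood well above background on only 2 arrays of WT DEN, 1 of WT DEN + PB, 1 of KO DEN and 0 of KO DEN + PB, and no change is given for it. A gene was called where limma gave a Benjamini-Hochberg adjusted p under 0.05 over all 24455 probes tested and the change was at least 1.5-fold.

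**Figure D1:**
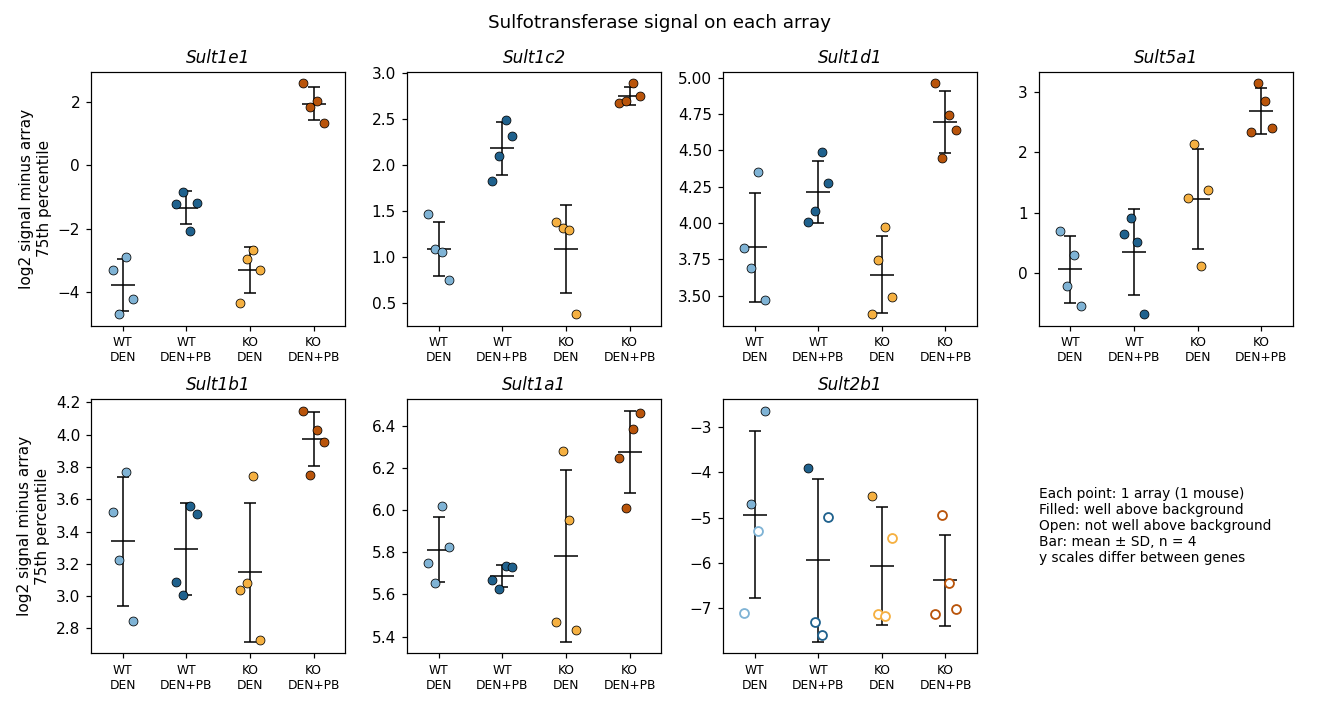
Log2 signal minus the array's 75th percentile (y axis) for each of the 16 arrays in the 4 groups (x axis), 1 panel per gene by its brightest probe, with mean ± SD (n = 4) and open points for arrays not well above background. The 4 KO DEN + PB arrays of Sult1e1 lie between 1.34 and 2.59, above the 12 others, which all lie below -0.8.

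The first question was which sulfotransferases responded to PB in WT liver. Sult1e1 and Sult1c2 rose, none fell, and the other 4 did not pass the test. Over all 13305 genes tested, 0.654% were called higher and 0.0827% lower in this comparison. The median change of the 6 members was 0.33 on the log2 scale, against -0.02 over all genes.

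Sult1e1, the estrogen sulfotransferase, which inactivates oestrogens with high affinity, showed the greatest rise. In WT DEN its levels were -3.30, -4.71, -2.90 and -4.23, and in WT DEN + PB they were -1.23, -0.83, -2.09 and -1.20. The groups did not overlap and were 0.81 apart at their nearest arrays. The log2 change was 2.45 ± 0.42 (SE), a 5.46-fold rise (limma, adjusted p = 0.00672), and 2-sided exact permutation gave p = 0.0286, the smallest that 4 arrays against 4 allow. Its mean processed signal was 16.6 in WT DEN, low but marked well above background on each array. Within the 3 slides that held both groups, the difference was 1.67 to 3.27. The call was lost in both settings with normexp, a background correction that was run on the median signal with an added offset of 50. That offset exceeds the mean processed signal of 16.6 in WT DEN. The change was 0.56 (limma, adjusted p = 0.99992) with normexp on the median signal. It was 0.87 (adjusted p = 0.190) with normexp without spots of outlying background.

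Sult1c2, which sulfonates phenolic compounds, was 1.46, 1.08, 1.05 and 0.75 in WT DEN and 1.82, 2.09, 2.49 and 2.31 in WT DEN + PB. These groups were 0.36 apart, and the change was 1.09 ± 0.22, or 2.14-fold (adjusted p = 0.0248). The call was lost in 11 of 29 alternatives, among them normexp on the median signal, slide as a block and 6 of the 16 single arrays left out (each without WT DEN or WT DEN + PB replicate 2, 3 or 4). In those settings the change stayed between 0.927 and 1.197. The call was kept with normexp without spots of outlying background (0.95, adjusted p = 0.0206). Of the other 4 members, Sult1d1 changed by 0.38 ± 0.20 and Sult5a1 by 0.29 ± 0.40, and Sult1b1 by -0.05 ± 0.23 and Sult1a1 by -0.12 ± 0.18. All 4 overlapped between groups.

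In KO liver the question was whether PB acted on the same genes and by how much. Here Sult1e1, Sult1c2 and Sult1d1 rose, none fell, and all 6 changes were above 0. In this comparison 1.26% of all genes were called higher and 0.872% lower, and 51.9% of genes had a change above 0. The median change of the 6 members was 1.25, against 0.01 over all genes.

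For Sult1e1, the KO DEN levels were -4.34, -2.95, -2.68 and -3.32 and the KO DEN + PB levels 2.59, 1.83, 2.03 and 1.34. The lowest PB array was 4.02 above the highest array without PB. The change was 5.27 ± 0.42, a 38.5-fold rise (adjusted p = 2.08e-06), and mean signal went from 23.9 to 747. Within slides it was 4.29, 6.17 and 5.03. With normexp it was smaller, 3.31, and still called (adjusted p = 4.88e-05).

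Sult1c2 was 1.38, 1.31, 1.29 and 0.38 in KO DEN and 2.67, 2.69, 2.88 and 2.75 in KO DEN + PB. It changed by 1.66 ± 0.22, or 3.16-fold (adjusted p = 0.000468), and this call was kept in all 29 alternatives. The 4 PB arrays were within 0.21 of each other, and the KO DEN array at 0.38 stood below the others of its group. Sult1d1, which sulfonates dopamine and other catecholamines in rodents, was 3.37, 3.75, 3.97 and 3.49 in KO DEN and 4.96, 4.44, 4.74 and 4.64 in KO DEN + PB. The groups were 0.47 apart and the change was 1.05 ± 0.20, or 2.07-fold (adjusted p = 0.00956). That call did not pass with normexp on the median signal (0.97, adjusted p = 0.578) or in the deposited table of the series, which is not scaled between arrays (0.75, adjusted p = 0.231), and it passed with normexp without spots of outlying background (0.98, adjusted p = 0.00365).

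The other 3 tested members did not pass in KO. Sult5a1, a less studied member of the family, changed by 1.46 ± 0.40 (adjusted p = 0.0824), Sult1b1, which acts on thyroid hormones, by 0.82 ± 0.23 (adjusted p = 0.0856) and Sult1a1, the main phenol sulfotransferase, by 0.49 ± 0.18 (adjusted p = 0.223). The adjusted p of Sult5a1 was 0.0307 with slide as a block, 0.0320 with normexp without spots of outlying background, 0.0476 without WT DEN + PB replicate 4 and 0.0420 without KO DEN replicate 2, and that of Sult1b1 was 0.0257 without KO DEN replicate 3. Sult1b1 and Sult5a1 had no overlap between the groups, with nearest arrays 0.01 and 0.21 apart. In all, 5 of 6 members lay wholly higher with PB in KO, against 4.58% of all genes, and 2 of 6 in WT, against 3.21%. The 6 genes were read on the same arrays and are not independent of each other. They were also listed with earlier results of these data known.

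**Figure D2:**
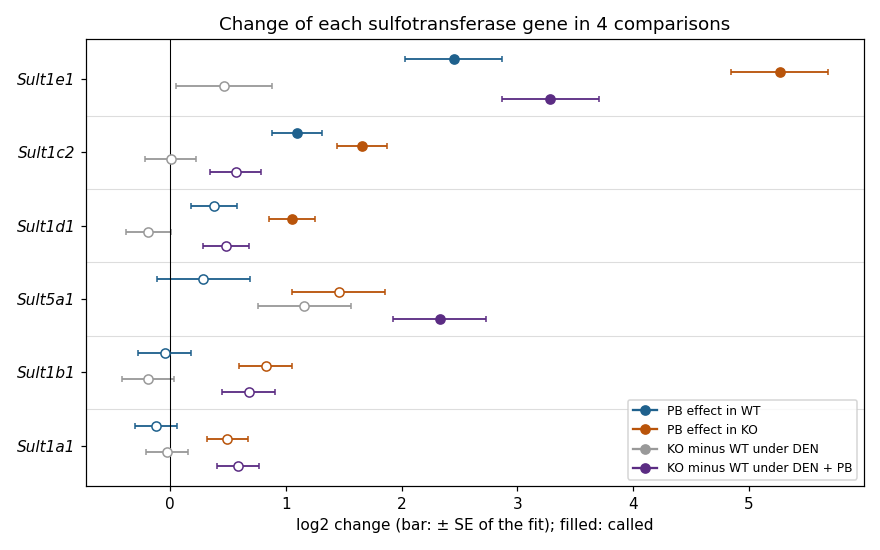
Log2 change (x axis) of each of the 6 tested genes (y axis) for the PB effect in each genotype and for the KO minus WT difference in each treatment, with bars of ± SE from the limma fit and filled points for called changes. Sult1e1 changes by 2.45 with PB in WT and by 5.27 in KO.

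The difference between the 2 PB effects was tested directly as an interaction, WT minus KO. No member was called, and over all genes 0% were called higher and 0% lower, while 1474 of 24455 probes had an unadjusted p under 0.05. For Sult1e1 the difference was -2.82 ± 0.59, so the rise was smaller in WT, with an adjusted p of 0.185. One background setting, normexp without spots of outlying background, called it at -2.46 (adjusted p = 0.0311). The other members had differences of -1.17 ± 0.57 (Sult5a1), -0.87 ± 0.32 (Sult1b1), -0.67 ± 0.28 (Sult1d1), -0.61 ± 0.25 (Sult1a1) and -0.56 ± 0.31 (Sult1c2). All 6 were below 0, as were 56.0% of all genes. Of the 6, 4 had an unadjusted p under 0.05 below 0, as had 2.48% of all genes. The direction was not particular to the family. In lists described below, 8 of 8 hepatocyte markers and 14 of 19 CAR target genes were below 0. So were 12 of 13 female-biased and 10 of 12 male-biased genes. The CAR list includes Gadd45b itself, above 0 at 0.74 ± 0.52, which was above background on no KO array. All 7 endothelial and 5 cholangiocyte markers tested were above 0. Without a call after adjustment, the data do not show that the PB effect differs between genotypes for any member, nor that it is alike.

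The genotypes were then compared within a treatment. Under DEN alone no member was called, with 1 of 6 at an unadjusted p under 0.05. Over all genes 1.02% were called higher and 1.74% lower in KO. The median of the 6 was -0.01, against -0.04 over all genes. Sult5a1 was 0.70, -0.21, 0.31 and -0.54 in WT DEN and 1.25, 2.13, 0.13 and 1.38 in KO DEN, overlapping, with a change of 1.16 ± 0.40 (adjusted p = 0.120). Without KO DEN replicate 3 it passed (adjusted p = 0.0414). For Sult1e1 the change was 0.46 ± 0.42, and for the other 4 it was between -0.19 and 0.0035.

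Under DEN + PB, Sult1e1 and Sult5a1 were higher in KO than in WT, none were lower, and all 6 changes were above 0. Here 1.76% of all genes were called higher and 5.85% lower, and 53.6% of genes had a change above 0. Of the hepatocyte markers counted below, 7 of 8 were above 0, as were 10 of 12 male-biased genes. All 7 endothelial and 5 cholangiocyte markers tested were below 0. The median of the 6 members was 0.63, against 0.03 over all genes. These values share the DEN + PB arrays with the PB effects above and are not a second line of evidence.

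The WT and KO levels of Sult1e1 under DEN + PB, given above, were 2.17 apart at their nearest arrays. The change was 3.28 ± 0.42, a 9.73-fold difference (adjusted p = 0.000283), and on the 4 slides it was 2.17, 3.79, 3.06 and 4.12. Sult5a1 was 0.66, 0.91, 0.51 and -0.67 in WT DEN + PB and 2.33, 3.13, 2.85 and 2.40 in KO DEN + PB. The groups were 1.42 apart and the change was 2.33 ± 0.40, or 5.02-fold (adjusted p = 0.00242), with 1.48 to 3.01 within slides. Both calls were kept in all 29 alternatives, with a Sult1e1 difference of 2.37 under normexp.

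The other 4 members had smaller changes in the same direction, and none was called. They were 0.68 ± 0.23 for Sult1b1, 0.59 ± 0.18 for Sult1a1, 0.57 ± 0.22 for Sult1c2 and 0.48 ± 0.20 for Sult1d1, with adjusted p from 0.0584 to 0.155. Sult1a1 (WT 5.69 ± 0.05, KO 6.28 ± 0.20, SD, n = 4), Sult1b1 (WT 3.29 ± 0.28, KO 3.97 ± 0.17) and Sult1c2 did not overlap between genotypes, and Sult1d1 did. Together 5 of 6 lay wholly higher in KO, against 7.46% of all genes. With only the 8 DEN + PB arrays in the fit, Sult1a1 (adjusted p = 0.0394) and Sult1b1 (adjusted p = 0.0481) were also called, and without KO DEN replicate 2 Sult1a1 was (adjusted p = 0.0240). The second, dimmer Sult1b1 probe was called nowhere either, and it differed in sign in the PB effect in WT (0.13 against -0.05) and overlapped between genotypes under DEN + PB.

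Cell type markers moved with genotype on the same arrays. The summed level is the sum, over a list's genes, of linear signal relative to the 75th percentile, so the brightest genes weigh most. For 8 hepatocyte markers it was 1247 to 1502 in WT DEN + PB and 1522 to 1865 in KO DEN + PB, without overlap, and 1 of the 8 was called higher. For 7 endothelial markers it was 36.5 to 43.4 against 19.1 to 22.7, with 3 called lower, and for 7 stellate cell markers 23.1 to 28.1 against 13.0 to 19.1, with 2 called lower.

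The other lists moved as well. Of 7 leukocyte and Kupffer cell markers tested, 5 were called lower in KO DEN + PB than in WT DEN + PB. The summed level of all 8 overlapped (28.1 to 34.9 in WT against 11.7 to 38.5 in KO). The array at 38.5, KO DEN + PB replicate 2, had Marco at 4.92, against 2.49, 1.835 and 2.93 on replicates 1, 3 and 4. Marco was not called. Of 5 cholangiocyte markers tested, 3 were called lower, with summed levels over 7 of 17.7 to 35.5 against at most 15.5. Of 4 pancreatic acinar markers tested, 1 was called higher, with summed levels over 8 of 6.45 to 8.97 against 7.03 to 11.6, and in each of these groups 4 of the 8 were above background on no array. The summed level of 7 kidney markers was 0.286 to 0.305 against 0.261 to 0.489, with 5 above background on no array in each group. Under DEN, 2 leukocyte and 2 endothelial markers were called lower in KO. With PB, 2 cholangiocyte markers were called higher in WT, and no marker of the 7 lists was called in KO. The part of cell composition in the sulfotransferase differences was not tested, and in bulk liver fewer cells of a type and less RNA per cell cannot be told apart. The summed leukocyte level was also high on 1 WT DEN array, replicate 3, at 126 against 22.9 to 38.6 on the other 3. Marco stood at 6.49 there, against 3.05, 2.23 and 4.17 on replicates 1, 2 and 4. Ptprc (1.685) and Adgre1 (3.65) were highest there too. Cd68 (0.125) and Clec4f (4.23) were close to their levels on replicate 1 (0.223 and 4.18). Without that array, replicate 3, the Sult1c2 call in WT was among those lost, as it was without several other single arrays. The Sult1c2 change without replicate 3 was 1.08 (limma, adjusted p = 0.0619), against 1.095 with all arrays. A link to cell content was not tested.

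The other genes of the family and of sulfate metabolism were counted from lists. Of 13 further cytosolic sulfotransferases 10 had a probe and 4 were tested. Sult2a7, of the bile acid and steroid sulfotransferases, rose with PB in both genotypes, by 2.40 ± 0.33 in WT (adjusted p = 0.000925) and 1.93 ± 0.33 in KO (adjusted p = 0.00524). Its levels were 1.95, 1.05, 1.44 and 0.55 in WT DEN and 3.46, 3.15, 3.89 and 4.09 in WT DEN + PB. In KO DEN they were 0.97, 1.06, 1.72 and 0.76, and in KO DEN + PB 2.63, 2.68, 2.97 and 3.93. Its close paralogues on chromosome 7 may bind the same probe, which was not tested. Sult2a8 changed with PB by -0.67 ± 0.16 in WT (adjusted p = 0.0858) and by 0.14 ± 0.16 in KO (adjusted p = 0.854). Its levels did not overlap in WT, at 7.10, 6.72, 7.17 and 6.62 in WT DEN and 6.14, 6.35, 6.37 and 6.09 in WT DEN + PB. The study lists Sult2a8 among the genes lowered by PB in WT. Here Sult2a8, like Sult1c1 and Sult4a1, was not called in any comparison. The KO minus WT changes of all 4 were uncalled under both treatments.

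Genes that supply sulfate and PAPS were mostly not called. Of 14 listed, 12 were tested. Neither Papss1 nor Papss2, which make PAPS, was called, with changes under PB of 0.11 and 0.28 in WT and -0.09 and 0.46 in KO. Csad, which directs cysteine sulfinate to taurine, fell by 1.2 ± 0.21 with PB in KO (adjusted p = 0.00690) and was lower in KO than in WT under DEN + PB (-0.91 ± 0.21, adjusted p = 0.0166). Cth, which makes cysteine, was higher in KO under DEN + PB by 0.67 ± 0.19 (adjusted p = 0.0474).

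Sulfatases remove sulfate. Their list of 15 genes, of which 12 were tested, also held Sumf1 and Sumf2, which are sulfatase-modifying factors and not sulfatases. None was called with PB in either genotype. Arsk was higher in KO by 1.63 ± 0.12 under DEN and 1.77 ± 0.12 under DEN + PB (adjusted p = 8.22e-07 and 2.66e-07), and Arsb lower, with changes of -0.71 ± 0.14 and -0.89 ± 0.14 (adjusted p = 0.0132 and 0.00112). Both encode lysosomal sulfatases. Of 20 Golgi sulfotransferases tested, which sulfonate proteins and sugar chains, none was called with PB. Under DEN Ndst1 was higher in KO (0.68 ± 0.17) and Chst7 lower (-0.97 ± 0.20). Under DEN + PB 5 were lower in KO and none was higher. The greatest changes were those of Chst7 (-1.34 ± 0.20), Chst2 (-1.06 ± 0.28, with 1 of 4 KO DEN + PB arrays above background), Chst12 (-0.92 ± 0.23) and Chst14 (-0.90 ± 0.15).

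Nuclear receptors that act on sulfotransferase genes showed few changes. Of 14 tested, none was called with PB, among them Nr1i3 (CAR, -0.26 ± 0.16 in WT and 0.24 ± 0.16 in KO) and Nr1h4. Ppara was higher in KO under DEN + PB by 0.73 ± 0.18 (adjusted p = 0.0204), and none was called under DEN.

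Genes regulated by CAR were a reference for the PB response, and all 19 were tested. Gadd45b was among them, although it was above background on no KO array. With PB, 8 rose in WT and 13 in KO, with none lower and medians of 0.80 and 1.03. Cyp2b10, the classical CAR target, rose by 6.69 ± 0.62 in WT and 6.80 ± 0.62 in KO, and its KO minus WT change under DEN + PB was -0.25 ± 0.62. Akr1b7, an aldo-keto reductase, rose by 2.86 ± 0.22 and 3.86 ± 0.22 and was higher in KO under DEN + PB by 1.74 ± 0.22 (adjusted p = 0.000294), while Fndc5 was lower (-0.94 ± 0.24, adjusted p = 0.0253).

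**Figure D3:**
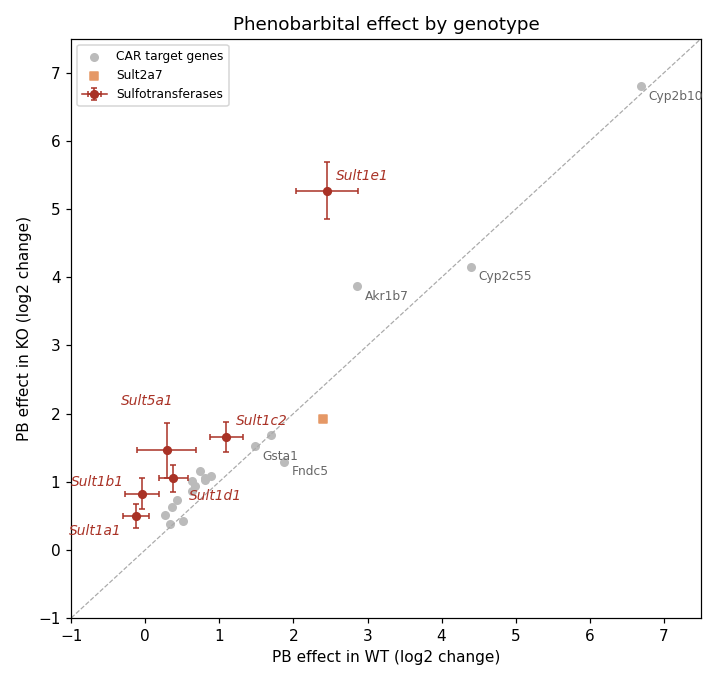
Log2 PB effect in WT (x axis) against that in KO (y axis) for the 6 tested sulfotransferases (red, bars ± SE), Sult2a7 (square) and 18 CAR target genes without Gadd45b (grey), with a dashed line of equal effects. Sult1e1 lies above the line at 2.45 and 5.27, and Cyp2b10 lies close to it at 6.69 and 6.80.

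Sex-biased genes were counted because some hepatic sulfotransferases differ between male and female mice. Of 13 female-biased genes tested, 2 rose with PB in WT (Cyp2b9 and Cyp2b13, by 5.19 ± 0.43 and 6.28 ± 0.52) and 5 in KO, and none fell. In KO the greatest of these rises were those of Cyp2b13 (6.69 ± 0.52), Cyp2b9 (5.95 ± 0.43), Hao2 (2.61 ± 0.57) and Cyp2a4 (0.89 ± 0.20). Cyp2b9 and Cyp2b13 are of the same subfamily as the CAR target Cyp2b10, so these counts are not independent of the CAR list. Whether their probes also bind paralogues was not tested. Cyp2c40 was higher in KO than in WT under DEN + PB (0.79 ± 0.17, adjusted p = 0.0113), and none was called under DEN. Of 12 male-biased genes tested, Susd4 fell by 1.77 ± 0.34 on the log2 scale in WT (adjusted p = 0.0182), and no other was called.

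The genes whose levels ran most like those of the called members are given by Pearson r over the 16 arrays, as a description among 13280 genes, since all points share the 4 group means. For Sult1e1 they were Akr1b7 (r = 0.964), the imprinted non-coding RNA Rian (r = 0.936) and Lrtm2 (r = 0.932). For Sult1c2 they were the cytochromes P450 Cyp2c37 (r = 0.958) and Cyp2c39 (r = 0.946) and the glutathione transferase Gstt3 (r = 0.934). For Sult1d1 they were 1810053B23Rik (r = 0.907), Cyp2c37 (r = 0.903) and Lect2 (r = 0.902), and for Sult5a1 they were Syt1 (r = 0.927), Acsm1 (r = 0.912) and Fhad1 (r = 0.883). Rian rose with PB by 2.97 ± 0.46 in WT and 5.01 ± 0.46 in KO. Its mean level was -7.49 in WT DEN and -6.95 in KO DEN. The undetected Gadd45b probe in KO DEN stood at -7.16, so the rises of Rian start near background and their size is uncertain. Syt1 was higher in KO under DEN + PB by 1.16 ± 0.25 (adjusted p = 0.00960), and its PB effects were not called.

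Among the members themselves, r ranged from 0.41 for Sult1b1 with Sult5a1 to 0.88 for Sult1d1 with its neighbours Sult1b1 and Sult1e1. Sult1c2, on another chromosome, ran with Sult1e1 at r = 0.87.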

How the data were processed

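Per the labels, 16 single-colour (Cy3) Agilent arrays were read with Feature Extraction 12, and the scanner headers give version 12.0.3.1. What the authors deposited is an intensity per spot, the processed signal, which their software corrected for background, with no scaling between arrays. A deposited series table held the mean of these intensities per probe, to within 5e-04 percent. The normalization behind the study's own test was not given in the sources used here. Each of the 16 arrays held 43379 spots for 41174 probes. Spots marked as outliers (71 to 122 per array) were left out, none was saturated, and repeat spots were averaged. The log2 values used here, made from the deposited intensities, are log2 signal minus the array's 75th percentile. A test was run for each probe that stood well above background throughout 1 group or more (24455, 59.4%). RefSeq accessions named 28223 probes (68.5%) through a GRCm38.p6 gene table, used for names and neighbourhood only, since the array's design is on another build. Linear models with 4 group means were fitted in R 4.3.3 by lmFit and eBayes of limma 3.58.1, with Benjamini-Hochberg adjustment over all probes tested. A gene is given by its brightest probe over the 16 arrays. The exact permutation test was 2-sided over 70 assignments. Errors are SE from the fit unless marked SD.

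All members are named, with genes of the lists that were called in at least 1 comparison, at most 4 per list and comparison by size, the 3 genes most like each called member, and Gadd45b. Uncalled list genes quoted (Papss1, Papss2, Nr1i3, Nr1h4, Sult1c1, Sult2a8, Sult4a1, Marco) were added after their values were seen. The members and lists were chosen with earlier results of these data known. Samples were grouped by the labels, and nothing beyond 1 mouse per array is stated on how replicates relate. The number of arrays limits the precision. The fit was tested on simulated data. The 29 alternatives covered background correction, normalization, filter, variance model, slide, replicate number, choice of probe and leaving out each array. The normexp alternative used the median signal, because the mean signal it was planned on was not among the columns used here. The same-number arrays of different groups had deviations that correlated between -0.213 and 0.356 (median 0.0141, 6 of 24 pairs over 0.1). Arrays of different numbers gave -0.485 to 0.542 (median -0.0175, 20 of 72 pairs over 0.1). No pairing by number was seen, though a weak one could go unseen.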

Additional observations from a re-analysis of the deposited data

Results flagged for a closer look

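In KO DEN, Sult1c2 on replicate 4 stood apart from the other 3 arrays, at a log2 level of 0.377. The gap to its nearest neighbour was 0.912 of the range of the group, above Dixon's 95% critical value for 4 samples. Among the 24 groups examined (6 genes in 4 groups), chance alone flags about 1 in 20. The PB effect on Sult1c2 in KO was called without this array as well.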

How the results depend on the processing

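Of 5 counts of called members, that for the PB effect in KO did not move by more than 1.5 times under any alternative. The count for the PB effect in WT, 2, was 0 with normexp on the median signal and 1 with normexp without spots of outlying background, in the series table without scaling, with no filter on dim probes, without moderation and with slide as a block, and it was 1 to 2 with 1 array left out. The count for the interaction, 0, was 1 with normexp without spots of outlying background. The count for KO minus WT under DEN + PB, 2, was 4 with only the 8 arrays compared, and that for KO minus WT under DEN, 0, was 0 to 1 with 1 array left out. With the replicate number as a block the counts were 2 for PB in WT, 3 for PB in KO, 0 for the interaction, 0 between genotypes with DEN alone and 2 between genotypes with DEN + PB, and no member's call changed. The cause of each change was not tested.

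Signs changed in 23 cases, all in values that were not called, the greatest move being that of Sult1e1, KO minus WT under DEN, from 0.46 to -0.378. For Sult1b1, PB effect in WT, the values were 0.009 with quantile normalization, 0.053 in the series table, 0.041 with the mean of its probes and -0.214 to 0.095 with 1 array left out. For KO minus WT under DEN, normexp on the median signal gave 0.16 for Sult1a1, 0.004 for Sult1d1, 0.012 for Sult1b1 and -0.378 for Sult1e1. Sult1a1 was 0.031 in the series table, 0.006 with the percentile over probes detected on all arrays and -0.194 to 0.089 with 1 array left out. Sult1c2 was -0.078 with normexp without spots of outlying background, -0.033 with slide as a block and -0.108 to 0.241 with 1 array left out. Without scaling, the median of all genes shifted to -0.31 for KO minus WT under DEN + PB and to -0.29 for the PB effect in KO, and to 0.35 for the interaction, and changes in that table are to be read against these medians.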
